A study of Homo sapiens with 4 samples.

Results

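The genes described here are 53 components of the machinery that licenses, fires and copies origins of DNA replication, listed by symbol according to what their products do. All 53 had a row among the 61228 genes of the count files, and all 53 passed the filter on low counts that left 19159 genes for testing. RNA-seq was done on H1792, an established human lung cancer cell line. Both groups carry the genotype label WT and were kept for 96 h, either with DMSO, the solvent control, or with ACBI1 at a dose that the labels write as 1 mM, a unit that the counts cannot check. ACBI1 is a bifunctional degrader that brings the VHL ubiquitin ligase to SMARCA2 and SMARCA4, the motor subunits of SWI/SNF chromatin remodelling complexes, and to PBRM1. Each group held 2 libraries, and nothing states that these came from separate cultures, so p-values measure only the spread between libraries. The series title concerns lung cancer with mutated SMARCA4 and the STING pathway; the comparison used here is ACBI1 against DMSO in this line.

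Replication of a chromosome begins in G1, when the origin recognition complex (ORC), CDC6 and CDT1 load the ring-shaped helicase MCM2 to MCM7 onto DNA, a step called licensing that geminin (GMNN) blocks by binding CDT1. In S phase the kinase CDC7 with its subunit DBF4, together with cyclin-dependent kinases, TOPBP1 and TICRR, turns the loaded ring into an active helicase by adding CDC45 and the 4-subunit GINS complex. Polymerase alpha with primase lays primers, the clamp loader RFC places the sliding clamp PCNA, polymerases delta and epsilon extend, and FEN1 and LIG1 join the fragments of the lagging strand. Many of these genes are textbook targets of the E2F transcription factors, which peak in activity at the border of G1 and S phase.

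Between 64281850 and 86010100 reads per library were assigned to genes, and 52 of the 53 genes had at least 250 counts in every library. The exception was RNASEH2A with 15 to 32 counts. The degrader acts on protein, so transcripts of its targets do not check the labels. The 6 epithelial markers, all detected, summed to 982 and 1035 CPM (read counts scaled by the TMM-adjusted library size) with DMSO and to 323 and 202 CPM with ACBI1. KRT7 went from 678 and 680.4 CPM to 179 and 60.3 CPM, EPCAM was at 5.38 and 2.78 CPM with DMSO and at 15.6 and 4.84 CPM with ACBI1, and CDH1 stayed at or under 0.222 CPM. Of 4 markers of the alveolar lineage of the lung 3 were detected, summing to at most 0.334 CPM, and NKX2-1 had no count, which allows up to 3 counts per library. The 4 leukocyte genes, with CD3E at 0, summed to at most 0.181 CPM in any library. The 4 fibroblast genes, all detected, summed to 344 and 747 CPM with DMSO and to 71.8 and 224 CPM with ACBI1. COL1A1 alone gave 324 and 693 CPM of this with DMSO and 62.3 and 210 CPM with ACBI1. The 3 endothelial genes, of which VWF and CDH5 were near 0, summed to 12.6 and 48.5 CPM with DMSO and to 0.0112 and 0.0458 CPM with ACBI1. PECAM1 alone gave 12.2 and 48.1 CPM of this with DMSO. The part of these marker changes in the results below was not tested.

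Transcripts of the replication genes were higher with ACBI1. Of the 53, 37 rose, none fell and 16 did not pass the threshold (edgeR's quasi-likelihood test, Benjamini-Hochberg adjusted p under 0.05 over all genes tested). At an unadjusted edgeR p under 0.05, 45 were higher and 0 lower, against 6490 of all 19159 genes tested in either direction. DESeq2 and limma-voom called 41 and 37 higher and 0 lower, against 1907 and 1308 called higher over all genes. By the adjusted edgeR test, 6.75% of all 19159 genes were called higher and 10.6% lower. Among the 11160 whose mean reached 5 CPM, 8.98% were called higher. The median log2 change of the 53 genes was 1.14, a 2.20-fold difference, against 0.01 over all genes tested. A log2 change of at least 1 was reached by 31 of the 53 and by 1625 of all 19159 genes tested. In 51 of the 53 genes both ACBI1 libraries lay above both DMSO libraries, a separation seen in 31.1% of all genes tested. In ORC4 and RFC1, neither of them called, both lay below, as in 6160 of the 19159 genes tested. DMSO replicate 1 exceeded replicate 2 in 42 of the 53 genes, compared with 50.5% of all genes tested. ACBI1 replicate 1 exceeded replicate 2 in 21 of the 53. The median log2 difference of replicate 1 from replicate 2 in the 53 genes was 0.30 with DMSO and -0.04 with ACBI1. Without ACBI1 replicate 1 the number of these genes called higher was 21, while the number over all genes went from 1294 to 415. In a bulk culture, more cells in S phase and more transcript per cell cannot be told apart.

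**Figure D1:**
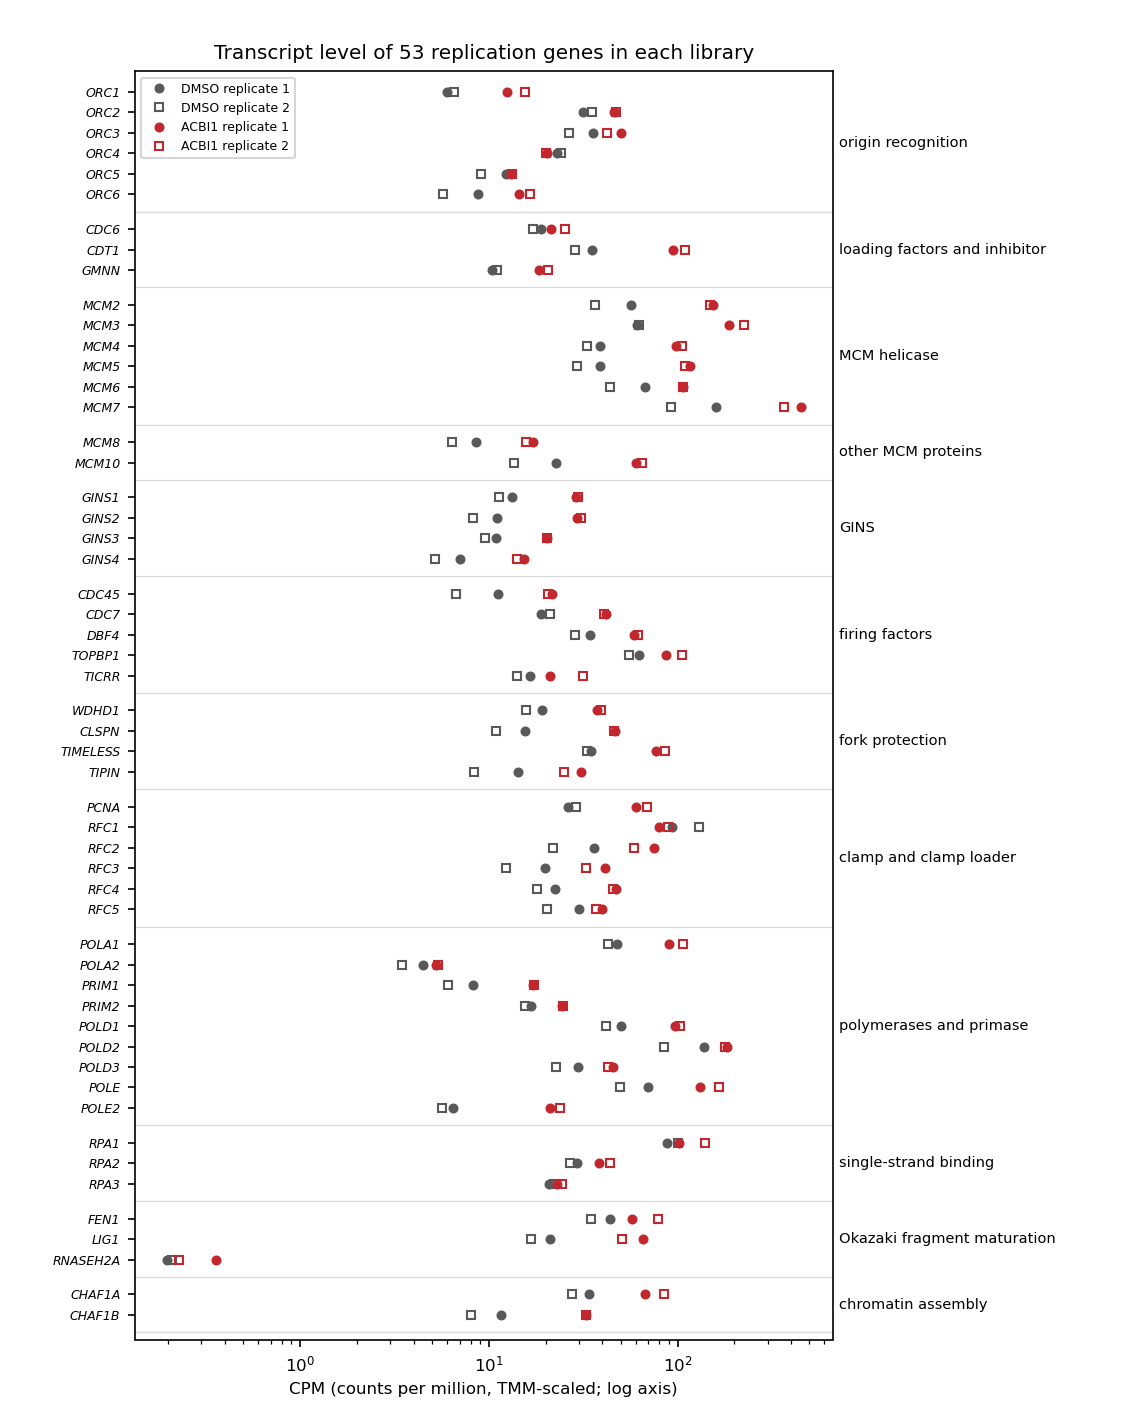
Level of each of the 53 replication genes in the 4 libraries, in CPM on a log axis, grouped by role; grey symbols are DMSO and red symbols ACBI1, with filled circles for replicate 1 and open squares for replicate 2. Red symbols lie to the right of grey ones in 51 genes and to the left in ORC4 and RFC1.

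**Figure D2:**
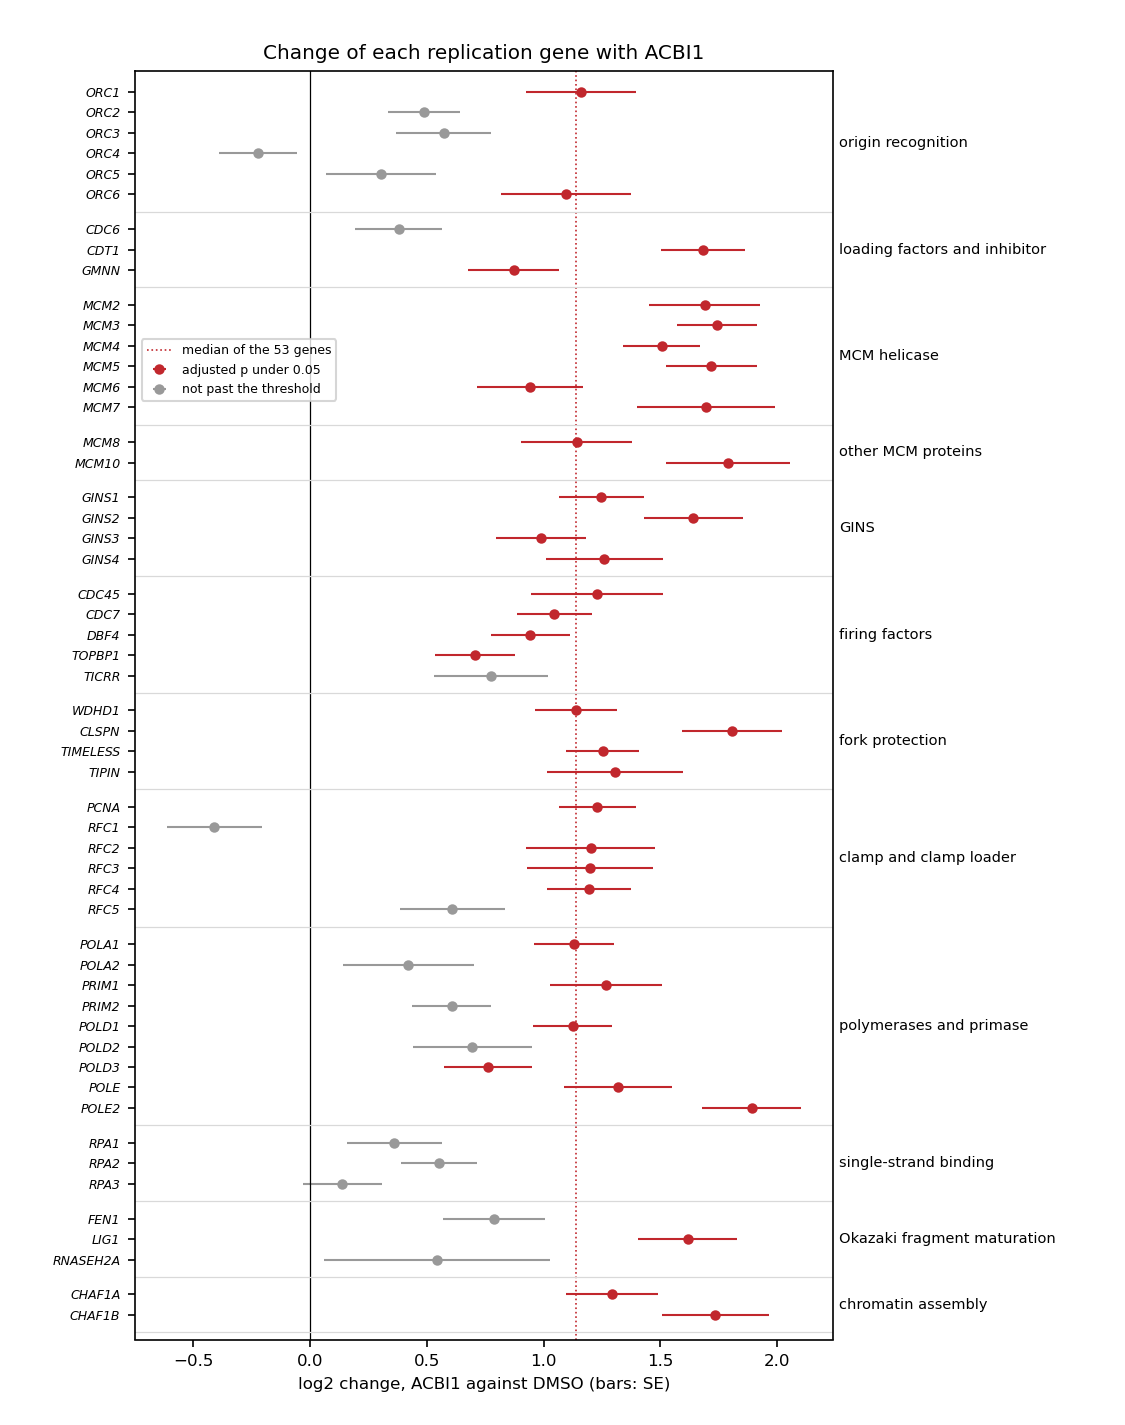
Log2 change of each gene with ACBI1 against DMSO, with its SE as a bar; red marks the 37 genes past the threshold and grey the 16 others. The dotted line is the median of the 53 genes, at 1.14.

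Promoter sequence was not used to list the genes. Many of them are textbook E2F targets, as stated above, so a high share with E2F words is no independent finding. RefSeq windows from 250 bases before to 50 bases after the gene start (build GRCh38.p14; the submitters' notes name hg38) were found for 47 of the 53 genes, with MCM4, MCM5, GINS4, POLD3, RPA2 and RPA3 unmatched, and 10 genes had several windows. They were searched on both strands for 4 words of the E2F consensus, TTTCCCGC, TTTCGCGC, TTTGCCGC and TTTGGCGC; TTTCGCGC and TTTGGCGC can overlap each other on opposite strands. A word was present in 23 of the 47 genes (48.9%), against 6.17% of the 12312 other tested genes with a window; counted by window, the shares were 39.0% of 59 and 3.31% of all 35116. The 5-letter word CCAAT was in 55.9% of the 59 windows and in 34.6% of all windows. A match is a description of the letters and not evidence of binding.

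The windows below were chosen to show the gene with the largest change (POLE2), 2 helicase genes with several words (MCM3 and MCM6), a gene with a word whose change did not pass (CDC6) and the gene with the lowest change (RFC1, with no word). Each is written 5' to 3' on the strand of the gene with the E2F words in capitals, and the start lies at base 251. They lie at chr14:49688165-49688464 (minus strand), chr6:52284693-52284992 (minus), chr2:135876394-135876693 (minus), chr17:40287629-40287928 (plus) and chr4:39366313-39366612 (minus), in that order.
POLE2: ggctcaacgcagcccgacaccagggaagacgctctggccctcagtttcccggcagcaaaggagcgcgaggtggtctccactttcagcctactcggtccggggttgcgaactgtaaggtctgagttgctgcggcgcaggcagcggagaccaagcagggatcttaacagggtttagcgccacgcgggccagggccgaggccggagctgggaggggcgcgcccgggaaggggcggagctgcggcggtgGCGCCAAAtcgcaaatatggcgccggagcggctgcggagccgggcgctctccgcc
MCM3: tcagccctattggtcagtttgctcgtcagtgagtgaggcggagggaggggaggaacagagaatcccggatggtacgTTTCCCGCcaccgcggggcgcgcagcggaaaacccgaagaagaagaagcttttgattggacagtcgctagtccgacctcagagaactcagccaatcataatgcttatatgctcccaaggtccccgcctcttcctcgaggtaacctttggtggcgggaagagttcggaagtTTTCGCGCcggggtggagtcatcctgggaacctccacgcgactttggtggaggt
MCM6: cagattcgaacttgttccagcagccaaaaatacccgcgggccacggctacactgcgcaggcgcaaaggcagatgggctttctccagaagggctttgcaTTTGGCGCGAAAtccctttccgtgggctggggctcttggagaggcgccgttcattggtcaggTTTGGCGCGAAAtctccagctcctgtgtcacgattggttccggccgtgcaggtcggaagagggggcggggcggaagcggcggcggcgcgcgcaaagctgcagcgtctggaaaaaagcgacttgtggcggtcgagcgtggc
CDC6: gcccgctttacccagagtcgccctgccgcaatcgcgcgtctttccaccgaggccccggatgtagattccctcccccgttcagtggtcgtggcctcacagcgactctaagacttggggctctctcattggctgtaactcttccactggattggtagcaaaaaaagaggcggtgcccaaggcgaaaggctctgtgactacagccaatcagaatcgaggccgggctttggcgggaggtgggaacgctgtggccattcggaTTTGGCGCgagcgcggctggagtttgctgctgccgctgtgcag
RFC1: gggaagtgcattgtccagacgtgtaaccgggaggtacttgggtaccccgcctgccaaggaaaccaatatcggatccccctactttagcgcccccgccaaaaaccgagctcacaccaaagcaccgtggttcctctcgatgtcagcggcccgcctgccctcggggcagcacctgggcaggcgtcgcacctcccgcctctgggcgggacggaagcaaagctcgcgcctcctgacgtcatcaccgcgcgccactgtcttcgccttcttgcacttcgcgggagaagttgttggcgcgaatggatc

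In POLE2 the word lay at position -5, on the opposite strand. MCM3 carried words at positions -174 and -4 from the start, both on its own strand. MCM6 held the 12-base run TTTGGCGCGAAA at 2 places, in which TTTGGCGC on its own strand overlaps TTTCGCGC on the other, and its change was the smallest of the 6 helicase genes. The word in CDC6 lay at position 7. Of the 31 words found in these genes, 25 began within 100 bases of the start. Transcripts of 20 of the 23 genes with a word rose, with a median log2 change of 1.23, as did 13 of the 24 genes with a window and no word, with a median of 1.02. Among tested genes outside the 53, 10.1% of the 760 with a word and 7.44% of the 11552 without were called higher, with medians of 0.12 and -0.01. These shares were not tested against each other.

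**Figure D3:**
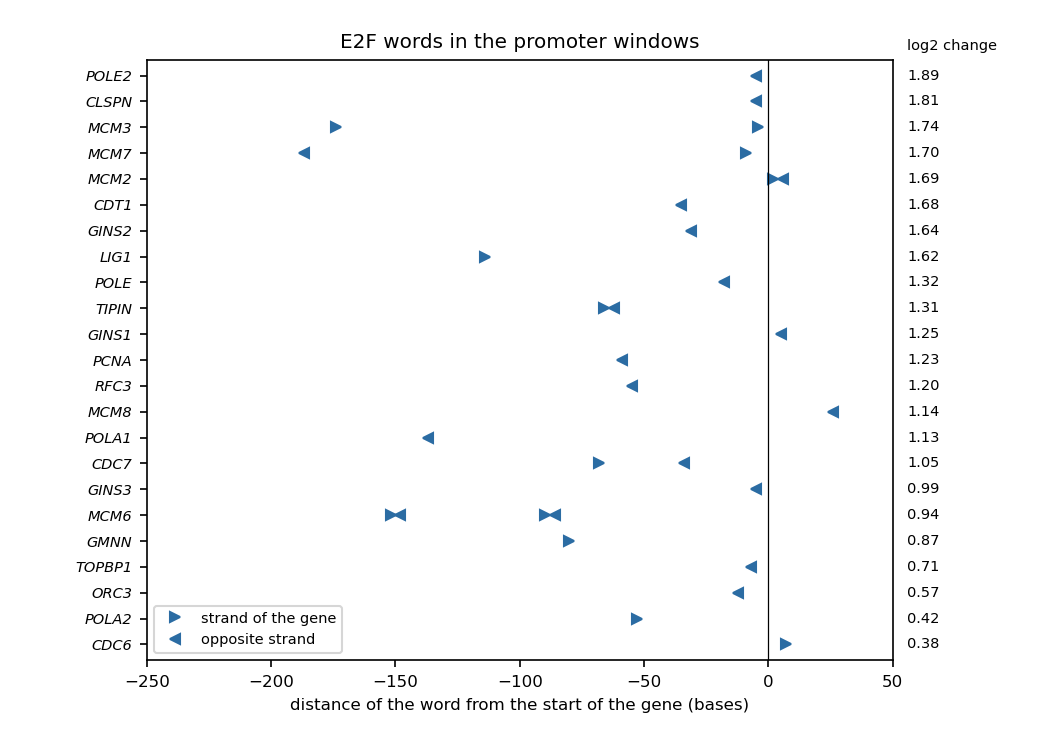
Position of each E2F word relative to the gene start (x axis, in bases) for the 23 replication genes that held any, ordered by log2 change (right margin); triangles point right for a word on the strand of the gene and left for the opposite strand. Most words lie within 100 bases of the start, in genes with large and with small changes alike.

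Among the 6 ORC genes, only ORC1 and ORC6 passed the threshold. ORC1, the subunit whose level cycles in human cells, stood at 6.03 and 6.53 CPM in the DMSO libraries and at 12.5 and 15.6 CPM in the ACBI1 libraries, a log2 change of 1.16 (SE 0.23, edgeR adjusted p 0.0248). ORC6, the smallest and most loosely bound subunit, went from 8.81 and 5.70 CPM to 14.5 and 16.6 CPM (log2 change 1.10, SE 0.28, adjusted p 0.0448). Both genes more than doubled on the scale of group means, by 2.24-fold and 2.14-fold. The core subunits ORC2, ORC3 and ORC5 had log2 changes of 0.49, 0.57 and 0.30 that did not pass (adjusted p 0.0792, 0.109 and 0.411). ORC4 was at 23.0 and 24.2 CPM with DMSO and at 20.3 and 20.1 CPM with ACBI1, a log2 change of -0.22 (SE 0.17, adjusted p 0.397). The ratio of ORC1 to ORC4 counts inside a library, which no scaling between libraries can alter, was 0.262 and 0.270 with DMSO and 0.615 and 0.776 with ACBI1. Such a ratio of 2 against 2 libraries cannot reach an exact permutation p under 0.333, so ratios here carry no test.

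The 3 loading genes did not move alike. CDT1, which escorts the helicase to ORC, had 35.0 and 28.7 CPM with DMSO and 94.8 and 109.9 CPM with ACBI1, a log2 change of 1.68 (SE 0.18, adjusted p 0.00473). GMNN, its inhibitor, rose from 10.3 and 11.02 CPM to 18.4 and 20.7 CPM (log2 change 0.87, SE 0.19, adjusted p 0.0316). CDC6, the ATPase that works with ORC, was at 18.8 and 17.2 CPM with DMSO and at 21.5 and 25.3 CPM with ACBI1. Its groups did not overlap, but the log2 change of 0.38 (SE 0.18) did not pass (adjusted p 0.207). CDT1 counts were 3.39 and 2.61 times those of GMNN in the DMSO libraries and 5.16 and 5.31 times in the ACBI1 libraries, so the inhibitor's transcript gained less than that of its target. Relative to CDC6, CDT1 counts went from 1.86 and 1.68 times to 4.42 and 4.34 times.

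All 6 genes of the MCM2 to MCM7 helicase rose, and their median log2 change of 1.69 was the highest among the 12 groups of roles. The chromatin assembly group followed at 1.51, and without ACBI1 replicate 1 these medians were 1.62 and 1.60, so the lead is not resolved. Among the helicase genes MCM3 showed the largest change, from 61.0 and 62.8 CPM with DMSO to 188 and 225 CPM with ACBI1 (log2 change 1.74, SE 0.17, edgeR adjusted p 0.00396). This lead is not resolved either. Without DMSO replicate 1 the log2 change was 1.72 for MCM3, against 2.16 for MCM7, 2.04 for MCM2 and 1.94 for MCM5. MCM5 went from 39.1 and 29.3 to 116 and 109 CPM (1.72, SE 0.19, adjusted p 0.00534). MCM7 went from 161 and 92.1 to 449.9 and 369 CPM (1.70, SE 0.30, adjusted p 0.0165). In each of these genes the lower ACBI1 library was more than 2 times the higher DMSO library. MCM2 went from 56.7 and 36.7 to 154 and 148 CPM (1.69, SE 0.24, adjusted p 0.00931), with the reservation that 23.6% of its exonic length is overlapped by another annotated gene. MCM4 went from 38.6 and 33.2 to 97.8 and 106 CPM (1.51, SE 0.16, adjusted p 0.00498). MCM6 stood apart from the other 5, at 66.9 and 44.0 CPM with DMSO and 107 CPM in both ACBI1 libraries, a log2 change of 0.94 (SE 0.23, adjusted p 0.0385). MCM6 counts were 1.18 and 1.20 times those of MCM2 in the DMSO libraries and 0.695 and 0.722 times in the ACBI1 libraries.

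Since the 6 helicase proteins assemble in equal numbers, their transcripts were also compared per kb of exon (union of exons in GENCODE 29). This union counts every annotated exon and can exceed the length of the transcript expressed. The order of different genes on this scale, here and below, is therefore approximate, and for MCM2 the overlap given above also applies. With DMSO the order was MCM7 at 28.8 ± 11.03 CPM per kb, MCM3 at 16.96 ± 0.354, MCM6 at 13.5 ± 3.93, MCM2 at 9.53 ± 2.89, MCM4 at 5.15 ± 0.554 and MCM5 at 4.66 ± 0.938 (SD, n = 2). Among neighbours in this order, MCM3 and MCM6, MCM6 and MCM2, and MCM4 and MCM5 were less than the sum of their SDs apart. With ACBI1 the order was MCM7 at 93.3 ± 13.1 CPM per kb, MCM3 at 56.7 ± 7.16, MCM2 at 30.8 ± 0.840, MCM6 at 25.9 in both libraries, MCM5 at 15.3 ± 0.665 and MCM4 at 14.6 ± 0.859. MCM2 thus passed MCM6, while the other places were the same except for MCM4 and MCM5, which were within that spread of each other in both groups.

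**Figure D4:**
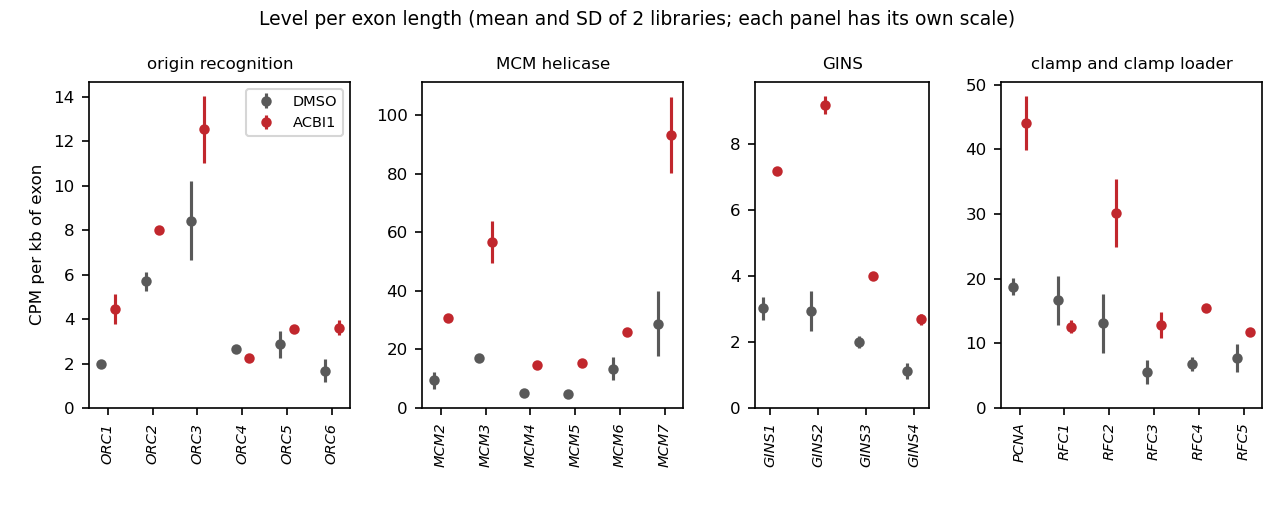
Mean level per kb of exon (CPM per kb, y axis from 0, a separate scale in each panel) in DMSO (grey) and ACBI1 (red) for ORC, the MCM helicase, GINS and the clamp with its loader; bars are the SD of 2 libraries. ORC4 and RFC1 are the 2 genes whose red point lies below the grey point.

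Of the 53 genes, the 2 for MCM proteins outside the ring also rose. MCM9, part of the further list below, was not called (log2 change 0.43, edgeR adjusted p 0.221). MCM10, which binds the helicase as forks start, went from 22.6 and 13.5 CPM to 60.5 and 64.5 CPM, a log2 change of 1.79 (SE 0.26, adjusted p 0.0105). MCM8, which acts with MCM9 in repair by recombination, went from 8.55 and 6.38 CPM to 17.2 and 15.8 CPM (1.14, SE 0.24, adjusted p 0.0268). MCM10 had the third largest change of the 53, after POLE2 and CLSPN.

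The 4 GINS subunits, which join CDC45 and the ring into the working helicase, all rose. GINS2 changed most, from 11.004 and 8.24 CPM to 29.4 and 30.7 CPM (log2 change 1.64, SE 0.21, adjusted p 0.00753). GINS3 changed least, from 10.9 and 9.59 CPM to 20.5 and 20.3 CPM (0.99, SE 0.19, adjusted p 0.0226). GINS1 (1.25, adjusted p 0.0104) and GINS4 (1.26, adjusted p 0.0231) lay between them. In every GINS gene the ACBI1 libraries differed from each other by less than the DMSO libraries did. Per kb of exon, GINS1 and GINS2 were within their spread of each other with DMSO (3.03 ± 0.349 and 2.95 ± 0.598 CPM per kb), and with ACBI1 GINS2 was the higher of them (9.20 ± 0.275 against 7.20 ± 0.120; SD, n = 2).

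Of the 5 other genes that fire origins, 4 rose. CDC45 went from 11.2 and 6.73 CPM to 21.6 and 20.5 CPM (log2 change 1.23, SE 0.28, adjusted p 0.0344). CDC7, the kinase that phosphorylates the ring, had a log2 change of 1.05 (SE 0.16, adjusted p 0.0114), and DBF4, its activating subunit, one of 0.94 (SE 0.17, adjusted p 0.0172). TOPBP1, a scaffold that also activates the checkpoint kinase ATR, went from 62.6 and 55.3 CPM to 87.3 and 105 CPM (0.71, SE 0.17, adjusted p 0.0403), the smallest change among the 37 called genes. TICRR, the partner of TOPBP1 known as treslin, was at 16.5 and 14.2 CPM with DMSO and at 21.2 and 31.4 CPM with ACBI1. Its ACBI1 libraries were far apart, and the log2 change of 0.78 (SE 0.24) did not pass (adjusted p 0.0779).

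All 4 genes of the fork protection group rose, with a median log2 change of 1.28. CLSPN, which encodes claspin, the adaptor through which ATR activates CHK1, went from 15.5 and 10.9 CPM to 46.3 and 46.0 CPM (1.81, SE 0.22, adjusted p 0.00636). TIMELESS and TIPIN, which form a complex that travels with the helicase, had log2 changes of 1.25 (SE 0.16, adjusted p 0.00685) and 1.31 (SE 0.29, adjusted p 0.0316). WDHD1, the hub that ties polymerase alpha to the helicase, went from 19.1 and 15.8 CPM to 37.7 and 39.1 CPM (1.14, SE 0.18, adjusted p 0.0118). For TIPIN, other annotated genes overlap 21.0% of the exonic length.

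PCNA, the sliding clamp, rose from 26.2 and 28.95 CPM to 60.4 and 69.1 CPM, a log2 change of 1.23 (SE 0.16, adjusted p 0.00797). Of its loader, RFC2, RFC3 and RFC4 rose by nearly the same amount, with log2 changes that all round to 1.20 (adjusted p 0.0341, 0.0323 and 0.0109). RFC5 had a log2 change of 0.61 that did not pass (SE 0.22, adjusted p 0.113). RFC1, the large subunit specific to the loader of PCNA, was at 93.7 and 130.1 CPM with DMSO and at 79.7 and 89.0 CPM with ACBI1, a log2 change of -0.41 (SE 0.20) that did not pass either (adjusted p 0.217). RFC1 counts were 4.17 and 7.25 times those of RFC4 in the DMSO libraries and 1.69 and 1.96 times in the ACBI1 libraries. Per kb of exon RFC1 stood above RFC4 with DMSO (16.7 ± 3.82 against 6.75 ± 1.07 CPM per kb) and below it with ACBI1 (12.6 ± 0.978 against 15.5 ± 0.406; SD, n = 2).

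Of the 9 polymerase and primase genes, 6 rose. POLE2, the second subunit of the leading-strand polymerase epsilon, had the largest change of all 53, a lead not resolved, as stated above. It went from 6.50 and 5.63 CPM to 21.0 and 23.9 CPM (log2 change 1.89, SE 0.21, edgeR adjusted p 0.00532). POLE, its catalytic subunit, had a log2 change of 1.32 (SE 0.23, adjusted p 0.0167), and POLE2 counts went from 0.0926 and 0.114 to 0.160 and 0.144 of those of POLE. POLA1 and POLD1, the catalytic subunits of polymerases alpha and delta, changed by 1.13 and 1.12 (adjusted p 0.0109 and 0.0108). PRIM1, the primase that makes the RNA primer, changed by 1.27 (adjusted p 0.0203) and POLD3, a delta subunit that binds PCNA, by 0.76 (adjusted p 0.0421). The accessory subunits PRIM2 (0.61, adjusted p 0.0596), POLD2 (0.70, adjusted p 0.113) and POLA2 (0.42, adjusted p 0.343) did not pass. POLA2 was at 4.46 and 3.49 CPM with DMSO and at 5.25 and 5.40 CPM with ACBI1, and 35.1% of its exonic length is overlapped by other annotated genes, so its level is uncertain.

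The genes of RPA, the trimer that coats single-stranded DNA at forks and in repair, were the only group of roles without a call, with 1 of 3 under an unadjusted p of 0.05. DESeq2 called RPA2 (adjusted p 0.0487) and limma-voom called none of the 3. RPA2 changed most, from 29.2 and 26.9 CPM to 38.6 and 43.8 CPM (log2 change 0.55, SE 0.16, adjusted p 0.0658). RPA1, the large DNA-binding subunit, had a log2 change of 0.36 (SE 0.20, adjusted p 0.267). RPA3 was at 20.7 and 22.3 CPM with DMSO and at 22.9 and 24.4 CPM with ACBI1, a log2 change of 0.14 (SE 0.17, adjusted p 0.610). In all 3 the ACBI1 libraries lay above the DMSO libraries, by little in RPA3. RPA3 counts went from 0.340 and 0.354 to 0.122 and 0.108 of those of MCM3.

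LIG1, the ligase that seals the fragments of the lagging strand, rose from 21.1 and 16.8 CPM to 65.7 and 50.6 CPM (log2 change 1.62, SE 0.21, adjusted p 0.00763). FEN1, the nuclease that trims flaps before sealing, was at 44.1 and 34.8 CPM with DMSO and at 57.5 and 78.6 CPM with ACBI1, just short of the threshold (0.79, SE 0.22, adjusted p 0.0561). RNASEH2A, the catalytic subunit of an enzyme that removes ribonucleotides, had 16 and 15 counts with DMSO and 32 and 15 with ACBI1, or 0.196 and 0.209 against 0.357 and 0.229 CPM. Its log2 change of 0.54 (SE 0.48, adjusted p 0.479) rested on these few counts, and with 30.8% of its exonic length overlapped by other genes its abundance could not be judged. Both large subunits of CAF-1, which deposits histones behind the fork, rose: CHAF1B from 11.6 and 8.06 CPM to 32.7 and 32.6 CPM (1.74, SE 0.23, adjusted p 0.00784), and CHAF1A from 34.1 and 27.6 CPM to 67.0 and 84.4 CPM (1.29, SE 0.20, adjusted p 0.0111).

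The threshold separated genes of similar size. The highest log2 change among the 16 genes not called was 0.79, in FEN1, and the lowest among the 37 called was 0.71, in TOPBP1, and 8 of the 16 had an unadjusted p under 0.05. For 8 genes (MCM2, GINS3, GINS4, TIPIN, RFC5, POLA2, PRIM1 and RNASEH2A) over 10% of the exonic length is overlapped by other annotated genes; 5 of these were called, and 32 of the other 45.

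A further list of 41 genes of the same programme, none of them among the 53, had a median log2 change of 0.59, with 14 called higher, 2 lower and 25 not called; the same backgrounds of 6.75% and 10.6% apply. UHRF1, which guides DNA methylation to new strands, rose from 43.5 and 46.3 CPM to 124 and 145 CPM (1.58, SE 0.17, adjusted p 0.00455). ATAD5, which unloads PCNA, changed by 1.58 (adjusted p 0.0140) and DSCC1, a subunit of the alternative clamp loader, by 1.56 (adjusted p 0.00823). POLD4, the smallest subunit of polymerase delta, fell from 12.7 and 15.4 CPM to 2.83 and 2.82 CPM (log2 change -2.32, SE 0.25, adjusted p 0.00469), so that its counts went from 0.253 and 0.371 to 0.0290 and 0.0274 of those of POLD1; 21.3% of its exonic length is overlapped by other genes. The other gene called lower was ETAA1, an activator of ATR bound to RPA (29.3 and 42.5 CPM against 18.0 and 16.7 CPM; -1.04, SE 0.22, adjusted p 0.0285). It was named after its value was seen. Fewer genes of this list were called, higher and lower, when DMSO replicate 2 or either ACBI1 library was left out. The same held over all genes tested.

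**Figure D5:**
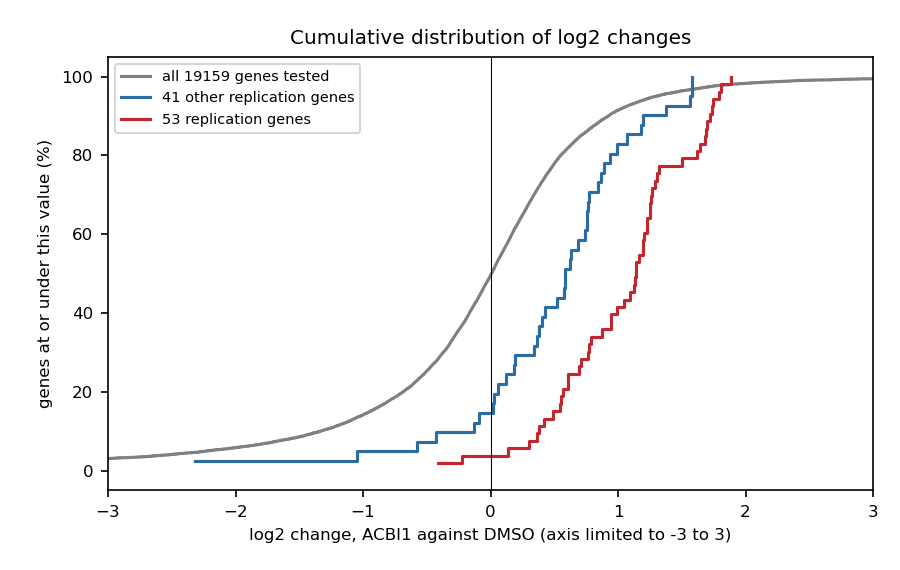
Share of genes (y axis, percent) with a log2 change at or under the value on the x axis, for all 19159 genes tested (grey), the 41 further replication genes (blue) and the 53 replication genes (red). The medians lie at 0.01, 0.59 and 1.14.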

How the data were processed

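The authors deposited 1 table per library of unnormalized read counts by gene symbol, in the htseq-count layout. TopHat2 2.1.1, HTSeq 0.11.0 and hg38 are named in the submitters' processing notes; annotation, strand setting and overlap mode are not given in the sources used here, so genes that share exons can lose reads. The 5 lines of unassigned reads (13.9% to 15.4% of reads) were left out. Counts were filtered with filterByExpr (minimum count 10, total 15), TMM-scaled and tested on treatment alone with edgeR 4.0.16 (R 4.3.3; glmQLFit, glmQLFTest, two-sided) across all genes, adjusted by Benjamini-Hochberg over all 19159 tested genes and called under 0.05. SE is the log2 change over the square root of F. Depth was 64281850 to 86010100 counts per library; counting limits cover counting error only. Alternatives were DESeq2 size factors, library size only, every gene with a count, DESeq2 1.42.0, limma-voom (3.58.1), a replicate block and each library left out.

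The genes, the further list, roles and motif words were chosen with earlier results of these data known. Naming rule: per role the called gene with the largest and the gene with the smallest change, all helicase and loading genes and any called against the trend, with values per library, the others by change and p; in the further list the 4 called genes with the largest change. Beyond the rule, values per library are given for ORC6, TICRR, RPA2 and FEN1, and ETAA1 and MCM9 are named. These, the within-library ratios, the divergent neighbours and the hairpins were chosen after values were seen. Exon length and overlap came from GENCODE 29 (GRCh38).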

Additional observations from a re-analysis of the deposited data

How the results depend on the processing

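Depth limits RNASEH2A; every other replication gene had at least 250 counts in each library. The number of replication genes called higher was 37 to 41 over the 5 alternatives on 4 libraries without a block, and the 37 genes were called in each; their log2 changes moved by no more than 1.5 times when any library was left out, while the number called ranged from 21 to 40 and 21 of the 37 were called in all 4 such fits, in which the lone library is assumed to vary like the other group. Over all genes, the 5 alternatives called from 1308 of 19159 higher (limma-voom) to 2202 of 32871 (every gene with a count). The 53 genes' median log2 change was lowest, 0.94, when DMSO replicate 2 was left out and highest, 1.28, when it was the other DMSO library. Of the 16 genes not called, 6 were called in at least 1 of the 5 alternatives (TICRR, RFC5, PRIM2, POLD2, FEN1 and RPA2). In the list of 41 genes, 22 were called higher with DESeq2 and 27 with the replicate block, 7 to 19 with a library left out, and 1 to 2 lower. With the replicate block, 45 of the 53 genes were called higher and 1 lower, RFC1 (edgeR adjusted p 0.0359). Over all 19159 genes tested the block called 7909, of which 3708 higher, against 3331 and 1294 in the main fit. The labels do not say that a number marks a shared batch. The correlation across genes of same-numbered deviations was 0.52, and 2 pairs cannot settle the point. Causes of these differences were not tested, including the fewer samples in the fits that leave a library out.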

Other observations

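Several replication genes share a start region with a gene on the opposite strand. By GENCODE 29, 13 of the 53 genes have a protein-coding neighbour that begins within 1000 bases upstream and is read the other way, and 12 of these neighbours could be tested. Of the 12, 3 were called higher, with a median log2 change of 0.17, while the median of the 12 replication genes beside them was 1.20; over all genes 6.75% were called higher. PRKDC, the catalytic subunit of the DNA-dependent protein kinase, which begins 2 bases from MCM4, rose from 244 and 213 CPM with DMSO to 476 and 493 CPM with ACBI1 (log2 change 1.09, edgeR adjusted p 0.0125). TRMT6, a tRNA methyltransferase subunit beside MCM8, changed by 1.02 on the log2 scale (adjusted p 0.0338). UFD1, an adaptor of the VCP segregase beside CDC45, changed by 0.70 (adjusted p 0.0318). These neighbours were picked out after their values were seen. The neighbours of PCNA (CDS2, -0.03), ORC1 (PRPF38A, 0.17), WDHD1 (SOCS4, 0.17) and LIG1 (ZSWIM9, 0.27) were not called, nor was PXMP2 beside POLE (-1.40, adjusted p 0.0585).

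An intron of MCM7 holds the hairpins of 3 microRNAs, and reads over them were counted apart from the host. MIR25 had 37 and 23 counts with DMSO and 163 and 89 with ACBI1 (log2 change 2.03, edgeR adjusted p 0.0242). MIR106B had 8 and 3 against 47 and 28 (2.72, adjusted p 0.0275), and MIR93, too low for the test, had 1 and 3 against 9 and 9. The host rose by 1.70. Such reads come from the precursor or unspliced host and do not measure mature microRNA.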
